A study of Mus musculus with 23 samples.

Results

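Accessibility at NR5A2-bound regions around 10 core pluripotency genes was examined in 8-cell Nr5a2 knockout mouse embryos and their controls. The genes are Pou5f1, Nanog, Sox2, Sall4, Tfcp2l1, Tdgf1, Prdm14, Tbx3, Zfp42 and Utf1. A region was taken as a gene's own when that gene had the nearest protein-coding gene span and lay within 50 kb of the region's midpoint. This gave 26 of the 16958 listed regions, at 8 of the 10 genes. Sall4 had 7 regions, Tfcp2l1 had 6, Pou5f1, Nanog and Prdm14 had 3 each, Zfp42 had 2, and Sox2 and Tdgf1 had 1 each. Tbx3 and Utf1 had none. Regions nearer to a neighbouring gene were left out. With these, Pou5f1 and Nanog had 7 listed regions each within 50 kb, Sall4 had 10, Tdgf1 had 6 and Prdm14 had 4.

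The regions come from NR5A2 CUT&RUN data, an antibody-directed cleavage assay of protein binding, and accessibility was read by ATAC-seq, a method based on transposase insertion into open DNA. In the maternal-zygotic (mz) series, 13 knockout embryos (mz_NrKO) and 8 heterozygous embryos (mz_NrHet) were each made into a library without culture. The inducible series began with early 2-cell embryos taken 30 h post hCG, which reached the 8-cell stage over 45 h of culture. A pool exposed to 750 nM 4-hydroxytamoxifen during the initial 24 h (i_NrKO, treated) stands against a pool without it (i_Nrpp, untreated). Strain, alleles and the means of the inducible deletion are not given in the sources used here. The mz controls carry the heterozygous label, not wild type, and the labels do not say whether their oocytes had Nr5a2. The inducible arms differ in both drug and deletion, so the effects of the drug and of the deletion cannot be told apart.

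Each group has a single merged column of RPKM in the deposited table, in name a read density scaled to length and library size, although 1 read was worth the same value in short and long regions. With merged columns no embryo-to-embryo spread could be computed, and no difference below has a replicate check. Whole reads were recovered from the values. The 26 regions held 158 reads in mz_NrKO, 196 in mz_NrHet, 328 in i_NrKO and 522 in i_Nrpp, with medians of 4.5, 6, 12 and 18 reads per region. Tests and 95% intervals compare merged libraries and cover counting error only. The window read for each value is of unknown width, so close regions may share reads. The smallest gaps between neighbours were 179 bp at Pou5f1, 399 and 992 bp at Tfcp2l1, and 1009 and 1476 bp at Sall4. Summed ratios and their intervals count any shared read more than once. A lower value may mean fewer cells with an open region or less opening per cell, which cannot be told apart in merged libraries. No listed region lies inside the Nr5a2 gene span, so the table cannot check the deletion.

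Pluripotency is the capacity of inner cell mass cells to form all embryonic lineages, and a network of transcription factors that bind one another's genes maintains it. POU5F1 (OCT4), SOX2 and NANOG form its centre, SALL4 works with them, and TFCP2L1, PRDM14, TBX3 and ZFP42 (REX1) are associated with the naive state. The orphan receptor NR5A2 binds extended half-sites as a monomer and is known in mouse embryonic stem cells as an activator of Pou5f1.

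The sequences just before the start sites are shown because NR5A2 is known to act at Pou5f1 and because a single listed region of the set touches a start site window. RefSeq (GRCm38.p6, the assembly of mm10) gave 9 such windows for 7 of the genes (Pou5f1, Nanog, Sox2, Tfcp2l1, Tdgf1, Zfp42 and Utf1). The 250 bases upstream of each start were searched on both strands for TCAAGG, the core of the NR5A half-site, and for the extended TCAAGGNCA, which contains it. In the first pair of sequences capitals mark TCAAGG or its reverse complement CCTTGA. In the third, capitals mark the bases that a listed region covers.
Pou5f1, chr17:35505782-35506031, plus strand: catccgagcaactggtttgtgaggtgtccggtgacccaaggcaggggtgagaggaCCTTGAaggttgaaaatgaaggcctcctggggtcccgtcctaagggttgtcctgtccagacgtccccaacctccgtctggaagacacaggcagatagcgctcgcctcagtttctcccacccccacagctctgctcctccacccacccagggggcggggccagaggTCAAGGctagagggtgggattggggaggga
Zfp42, chr8:43307010-43307259, minus strand: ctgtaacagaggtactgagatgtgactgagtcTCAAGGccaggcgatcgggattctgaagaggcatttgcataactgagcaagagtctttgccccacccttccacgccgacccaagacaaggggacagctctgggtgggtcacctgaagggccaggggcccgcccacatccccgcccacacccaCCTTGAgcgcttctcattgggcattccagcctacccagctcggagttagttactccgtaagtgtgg
Tfcp2l1, chr1:118627695-118627944, plus strand: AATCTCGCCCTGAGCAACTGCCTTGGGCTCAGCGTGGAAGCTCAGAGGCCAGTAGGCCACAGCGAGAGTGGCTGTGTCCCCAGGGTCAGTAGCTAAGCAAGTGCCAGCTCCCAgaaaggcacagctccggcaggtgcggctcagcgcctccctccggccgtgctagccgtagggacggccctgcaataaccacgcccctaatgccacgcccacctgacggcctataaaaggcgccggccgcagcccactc

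The core TCAAGG occurred in 2 of the 9 windows, against 12.5% of all 32851 windows. In the Pou5f1 window its matches began 195 bases upstream of the start on the minus strand and 30 bases upstream on the plus strand. The Zfp42 window also had 2 matches, of which the one beginning at base -218, TCAAGGCCA, fitted the extended form that 1.39% of all windows hold. These are matches of letters and not shown to be sites. No listed region of the set lay in the Pou5f1 or Zfp42 window. The Tfcp2l1 window, whose first 113 bases lie in a listed region, had no match on either strand.

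As a whole, the 26 regions were less accessible in both kinds of knockout than in their controls. Their mean was 2.18 RPKM in mz_NrKO and 4.43 RPKM in mz_NrHet, so that the summed RPKM had a ratio of 0.492 (95% interval 0.397 to 0.610), beside 0.668 (0.663 to 0.674) over all 16958 regions. In the inducible series the mean was 2.15 RPKM in the treated pool and 3.28 RPKM in the untreated pool, a ratio of 0.655 (0.569 to 0.754), beside 0.694 (0.690 to 0.698) over all regions. The mz ratio of the set thus had an interval below the value for the whole table, while the inducible ratio lay close to it. The median log2 ratio of (RPKM + 1) was -0.68 for the set and -0.32 for all regions in the mz series, and -0.46 and -0.35 in the inducible series. The members were chosen with results of these data known, so these values describe the set and test nothing about it.

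Single regions passed the test rarely. By a two-sided exact binomial test on the recovered reads, adjusted over all 16958 regions (Benjamini-Hochberg), 1 of 26 regions was lower in mz_NrKO, where 1.73% of all regions were, and none was higher, where 0.0236% were. In the inducible series 1 of 26 was lower, where 6.37% of all regions were, and none was higher, where 0.0767% were. At an unadjusted p below 0.05, 8 of 26 were lower in the mz series (11.9% of all regions) and 7 of 26 in the inducible series (19.7%), with none higher in either (0.708% and 0.879% of all regions). Shares of 1 in 26 are near the background in both series and say nothing about the set. By size alone, 16 of 26 deposited mz ratios lay below 0.667 (49.2% of all regions), and 4 of 26 above 1.5 (20.3%). For the inducible ratios 14 of 26 lay below (48.6%) and 1 of 26 above (8.57%). Without regard to size, values were lower in mz_NrKO at 19 of 26 regions (64.3% of all regions) and in the treated pool at 23 of 26 (74.4%). They were lower in both series at 17 of 26 regions, against 50.5% of all regions, and higher in both at 1 of 26, against 9.98%. None of the 26 regions differed between the series by an exact conditional test over all regions, where 0.0177% of all regions did, and 3 of the 26 (11.5%) had an unadjusted p below 0.05, against 4.41% of all regions.

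**Figure D1:**
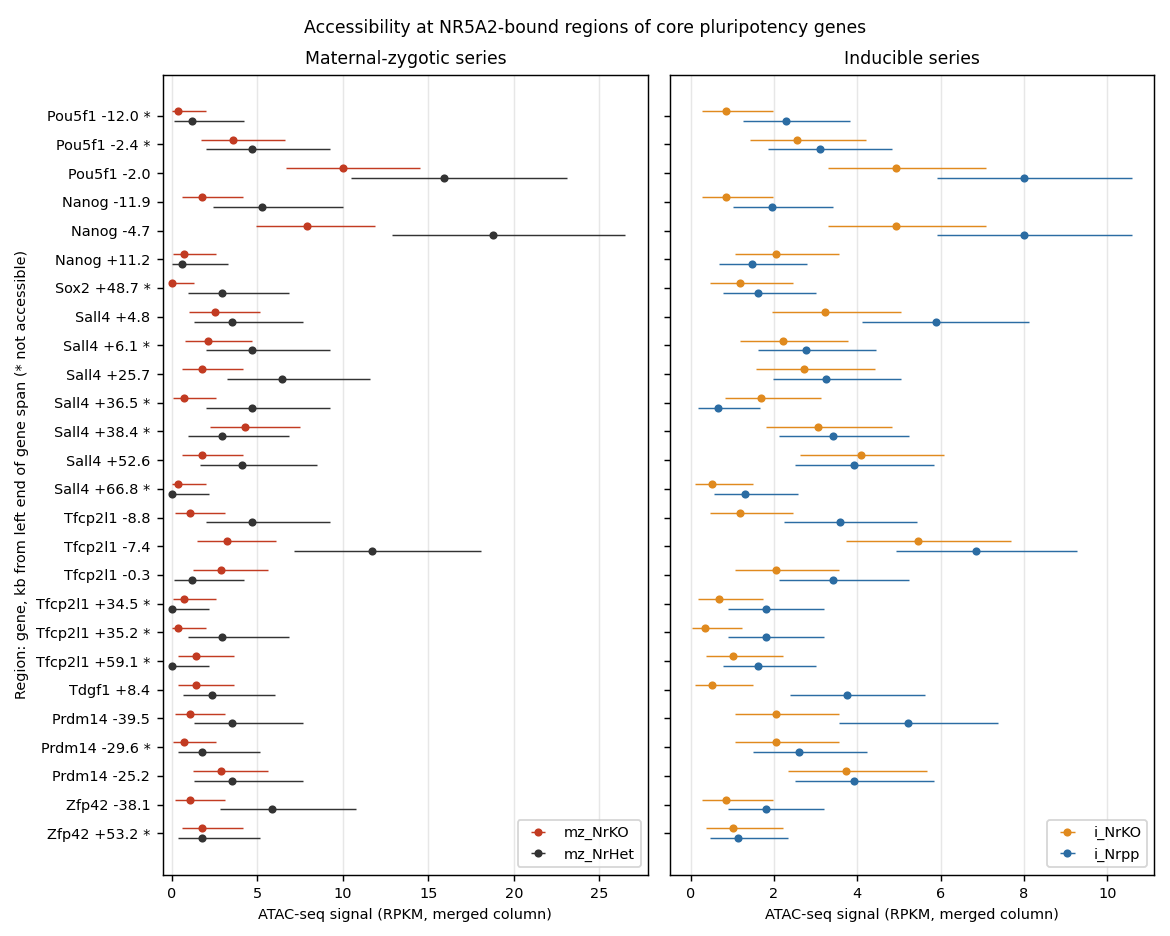
ATAC-seq signal in RPKM at each of the 26 regions, named by gene and by distance in kb from the left end of the gene span, for mz_NrKO and mz_NrHet (left) and i_NrKO and i_Nrpp (right). Points are merged columns, bars are exact 95% Poisson intervals of the reads, asterisks mark regions the authors class as not accessible, and the knockout point lies left of the control at 19 of 26 regions in the mz series and 23 of 26 in the inducible series.

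Pou5f1 encodes the POU-domain factor OCT4. Its most accessible region (chromosome 17, 35503881 to 35504136) lies 2.02 kb upstream of the gene's start, in the stretch where the gene is known to have its distal enhancer. It had 10.0 RPKM (28 reads) in mz_NrKO and 15.9 RPKM (27 reads) in mz_NrHet, and 4.93 RPKM (29 reads) in the treated and 8.00 RPKM (49 reads) in the untreated pool. Both knockout values are below their control, with nearly equal ratios of 0.633 (0.360 to 1.12) for the mz embryos and 0.617 (0.376 to 0.996) for the pools, and neither passed (adjusted p = 0.499 and 0.217, exact binomial tests). The region also had strong NR5A2 signal, 7.47 RPKM of CUT&RUN, above 84.5% of all regions, and its CUT&RUN summit was not moved when the authors recentred summits on an Nr5a2 motif.

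A second Pou5f1 region (35503510 to 35503701) lies 2.43 kb upstream, with a gap of 179 bp to the first, and is classed as not accessible. It had 3.59 RPKM in mz_NrKO and 4.70 RPKM in mz_NrHet, and 2.55 RPKM in the treated and 3.10 RPKM in the untreated pool. That places it above 97.5% of the regions of its class by mean accessibility, and the closeness of both regions means that they may share reads. The third (35493971 to 35494178), 12 kb upstream, had 1 read in mz_NrKO and 2 in mz_NrHet, and 0.851 RPKM in the treated against 2.29 RPKM in the untreated pool. Over the 3 regions the gene's ratio was 0.644 (0.400 to 1.04) for the mz embryos and 0.623 (0.428 to 0.898) for the pools, the closest pair of ratios among genes with more than a single region.

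Nanog, the homeobox factor gene, held the most accessible region of the set in mz_NrHet (chromosome 6, 122702607 to 122702900), 4.74 kb upstream of the start. It had 7.89 RPKM (22 reads) in mz_NrKO and 18.8 RPKM (32 reads) in mz_NrHet, a ratio of 0.420 (0.232 to 0.745). The adjusted p was 0.0730 by the exact binomial test over all regions. When only the 7445 regions with at least 10 reads over both columns were tested, it passed (adjusted p = 0.0335, exact binomial test). In the pools it had 4.93 RPKM (29 reads) treated and 8.00 RPKM (49 reads) untreated, by coincidence the same counts as at the Pou5f1 region above, and a ratio of 0.617. Its NR5A2 signal was middling, 3.78 RPKM of CUT&RUN, above 43.7% of all regions, although its accessibility was above 98.3% of them.

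A region 11.9 kb upstream of Nanog (122695480 to 122695639) was lower in the same direction, with 1.79 RPKM in mz_NrKO and 5.29 RPKM in mz_NrHet, and 0.851 RPKM in the treated and 1.96 RPKM in the untreated pool. It did not pass in either series (adjusted p = 0.391 and 0.429, exact binomial tests). The third region (122718559 to 122718883), 4.09 kb beyond the other end of the gene, was the 1 region of the set with higher values in both knockouts. It had 0.717 RPKM in mz_NrKO and 0.587 RPKM in mz_NrHet, and 2.04 RPKM in the treated and 1.47 RPKM in the untreated pool. The mz values are 2 reads and 1 read, under the limit of 3 reads that a count of 0 allows, so this direction is not measured. Over its 3 regions Nanog had a ratio of 0.422 (0.253 to 0.693) for the mz embryos and 0.685 (0.462 to 1.01) for the pools.

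Sox2, the HMG-box partner of OCT4, had a single region (chromosome 3, 34698580 to 34698760), 46.2 kb beyond the end of the gene and not accessible by the authors' class. It had 0 reads in mz_NrKO, which allows up to 1.08 RPKM, and 2.94 RPKM (5 reads) in mz_NrHet, with an upper 95% bound of 0.666 on the ratio. Its pools had 1.19 RPKM treated and 1.63 RPKM untreated. The mz difference did not pass (adjusted p = 0.154, exact binomial test), and its NR5A2 signal, 2.50 RPKM, was above 19.9% of all regions. Beyond the 50 kb limit 4 more regions had Sox2 as nearest gene. The closest of them, 69.2 kb away and accessible, had 0.359 RPKM in mz_NrKO and 3.52 RPKM in mz_NrHet, and 1.19 RPKM in the treated and 3.59 RPKM in the untreated pool.

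Sall4, a zinc finger factor gene of the inner cell mass, had the most regions. Of its 7, 2 lay inside the gene and 5 beyond its right-hand end, out to 47.9 kb. Its start site is not in the promoter table, so these are not called upstream or downstream. The most accessible of them by the mean of the 4 columns, inside the gene (chromosome 2, 168753014 to 168753348), had 2.51 RPKM in mz_NrKO and 3.52 RPKM in mz_NrHet, and 3.23 RPKM in the treated and 5.88 RPKM in the untreated pool. Neither difference passed (adjusted p = 0.979 and 0.218, exact binomial tests).

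The other Sall4 regions had ratios on both sides of 1. A region 6.79 kb from the gene (168773895 to 168774093) had 1.79 RPKM in mz_NrKO and 6.46 RPKM in mz_NrHet, a ratio of 0.278 (0.0756 to 0.866), but 2.72 RPKM in the treated and 3.26 RPKM in the untreated pool. A region at 17.7 kb (168784653 to 168785106) had 0.717 RPKM in mz_NrKO and 4.70 RPKM in mz_NrHet, while the treated pool was higher, with 1.70 RPKM against 0.653 RPKM untreated. Of the 26 regions it had the smallest unadjusted p in the exact conditional test between the series, 0.00321, with an adjusted p of 0.949 over all regions. A neighbour at 19.5 kb (168786583 to 168786797) was higher in mz_NrKO, with 4.30 RPKM against 2.94 RPKM in mz_NrHet, and did not pass. Summed over the 7 regions, Sall4 had a ratio of 0.516 (0.326 to 0.812) for the mz embryos and 0.826 (0.632 to 1.08) for the pools, the highest inducible ratio among the 8 genes.

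Tfcp2l1 encodes a CP2-family factor of naive pluripotency and held the region that fell in mz_NrKO. That region (chromosome 1, 118620280 to 118620816), 7.40 kb upstream of the start, fell to 3.23 RPKM (9 reads) in mz_NrKO, against 11.7 RPKM (20 reads) in mz_NrHet. The ratio was 0.275 (0.110 to 0.631), and the adjusted p of 0.0496 (exact binomial test) is barely below the threshold of 0.05. In the pools it had 5.45 RPKM treated and 6.86 RPKM untreated, a ratio of 0.794 (0.485 to 1.29), which did not pass (adjusted p = 0.681, exact binomial test). The exact conditional test of this difference between the series gave an unadjusted p of 0.0265 and an adjusted p of 1 over all regions, so the region is not shown to differ between them. With the columns scaled to a median log2 ratio of 0 the mz ratio was 0.343 with an adjusted p of 0.292, and with the summed ratio over all regions scaled to 1 it was 0.411 with an adjusted p of 0.582 (exact binomial tests).

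Next to it, a region 8.82 kb upstream (118618962 to 118619287) had lower values in both knockouts, with 1.08 RPKM in mz_NrKO and 4.70 RPKM in mz_NrHet, and 1.19 RPKM in the treated and 3.59 RPKM in the untreated pool. Its ratios were 0.229 (0.0391 to 0.954) and 0.332 (0.120 to 0.804), with adjusted p of 0.296 and 0.0874 by exact binomial tests. NR5A2 binding there was among the strongest of the set, 13.3 RPKM of CUT&RUN, above 97.9% of all regions. Inside the gene, 35.2 kb past the start (118662996 to 118663296), a not accessible region had 0.359 RPKM in mz_NrKO and 2.94 RPKM in mz_NrHet, and 0.340 RPKM in the treated and 1.80 RPKM in the untreated pool. The region at the start site (118627455 to 118627807), part of whose sequence is shown above, had values in opposite directions in the series. It had 2.87 RPKM (8 reads) in mz_NrKO and 1.17 RPKM (2 reads) in mz_NrHet, but 2.04 RPKM in the treated and 3.43 RPKM in the untreated pool, and neither passed (adjusted p = 0.844 and 0.465, exact binomial tests).

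Over its 6 regions Tfcp2l1 had ratios of 0.471 (0.274 to 0.801) for the mz embryos and 0.561 (0.407 to 0.769) for the pools, so both intervals lay below 1. The same held for no other gene of the set, but reads shared between close Tfcp2l1 regions would make these intervals too narrow. Both intervals contain the ratios over all regions, 0.668 and 0.694, so they do not set Tfcp2l1 apart from the whole table. The remaining 2 Tfcp2l1 regions, 34.5 kb past the start and 1.83 kb beyond the gene's end, had 0 reads in mz_NrHet and 2 and 4 reads in mz_NrKO. The mz_NrKO values, 0.717 and 1.43 RPKM, are under the 1.76 RPKM that 0 reads allow in mz_NrHet, so no fold is given.

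Prdm14, a PR-domain factor gene of naive pluripotency and germ cells, had 3 regions, all to the left of the gene at 25.2 to 39.5 kb. A closer listed region, 19.5 kb to the right, had Ncoa2 as its nearest gene and was not counted. The farthest of the 3 (chromosome 1, 13073766 to 13074095) had the strongest NR5A2 binding of the set, 22.5 RPKM of CUT&RUN, above 99.9% of all regions. It had 1.08 RPKM in mz_NrKO and 3.52 RPKM in mz_NrHet, and 2.04 RPKM (12 reads) in the treated and 5.22 RPKM (32 reads) in the untreated pool. Values were thus lower in both knockouts, with ratios of 0.305 (0.0494 to 1.43) and 0.391 (0.183 to 0.780) and adjusted p of 0.481 and 0.0575 by exact binomial tests. Among the 14509 regions with at least 10 reads over both inducible columns it passed (adjusted p = 0.0497, exact binomial test). The most accessible Prdm14 region (13088053 to 13088310) had 2.87 RPKM in mz_NrKO and 3.52 RPKM in mz_NrHet, and 3.74 RPKM in the treated and 3.92 RPKM in the untreated pool, ratios of 0.814 (0.248 to 2.85) and 0.956 (0.511 to 1.78). Over the 3 regions Prdm14 had 0.529 (0.232 to 1.19) for the mz embryos and 0.666 (0.450 to 0.978) for the pools.

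Zfp42 encodes REX1, a zinc finger protein used as a marker of naive embryonic stem cells. Its 2 regions lie far out on either side. The accessible one (chromosome 8, 43256792 to 43257120), 38.1 kb beyond the gene's end, had 1.08 RPKM (3 reads) in mz_NrKO and 5.87 RPKM (10 reads) in mz_NrHet, and 0.851 RPKM in the treated and 1.80 RPKM in the untreated pool. The mz ratio was 0.183 (0.0324 to 0.711) without passing (adjusted p = 0.146, exact binomial test). The other (43348066 to 43348490), 41.3 kb upstream, had near-equal values, with 1.79 RPKM in mz_NrKO and 1.76 RPKM in mz_NrHet, and 1.02 RPKM in the treated and 1.14 RPKM in the untreated pool.

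Tdgf1 encodes CRIPTO, a membrane-anchored co-receptor for NODAL, and is the 1 gene of the set that encodes no nuclear factor. Its single region (chromosome 9, 110947840 to 110948125), 1.82 kb upstream of the start, fell to 0.510 RPKM (3 reads) in the treated pool, against 3.75 RPKM (23 reads) in the untreated pool. The ratio was 0.136 (0.0261 to 0.450), with an adjusted p of 0.00611 by the exact binomial test. In the mz series it had 1.43 RPKM in mz_NrKO and 2.35 RPKM in mz_NrHet, 4 reads each, a ratio of 0.611 (0.114 to 3.28). The exact conditional test of this difference between the series gave an unadjusted p of 0.164, so the region is not shown to differ between them. After scaling of the inducible columns to a median log2 ratio of 0 the ratio was 0.173 with an adjusted p of 0.0645, and with the summed ratio scaled to 1 it was 0.196 with an adjusted p of 0.110 (exact binomial tests).

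Tbx3, a T-box factor gene, and Utf1, a chromatin-associated factor gene, had no region under the rule. For Utf1 the closest listed region was 133 kb away and had Caly as its nearest gene. Tbx3 had 8 regions just outside the 50 kb limit, from 50.4 to 90.5 kb, of which the closest had 0.359 RPKM in mz_NrKO and 0.587 RPKM in mz_NrHet. The one at 90.5 kb (chromosome 5, 119579719 to 119580252) had 11.1 RPKM in mz_NrKO and 17.0 RPKM in mz_NrHet, and 2.89 RPKM in the treated and 5.71 RPKM in the untreated pool. Just inside the limit, the Sall4 region at 47.9 kb had 0.359 RPKM in mz_NrKO and 0 reads in mz_NrHet, and 0.510 RPKM in the treated and 1.31 RPKM in the untreated pool.

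**Figure D2:**
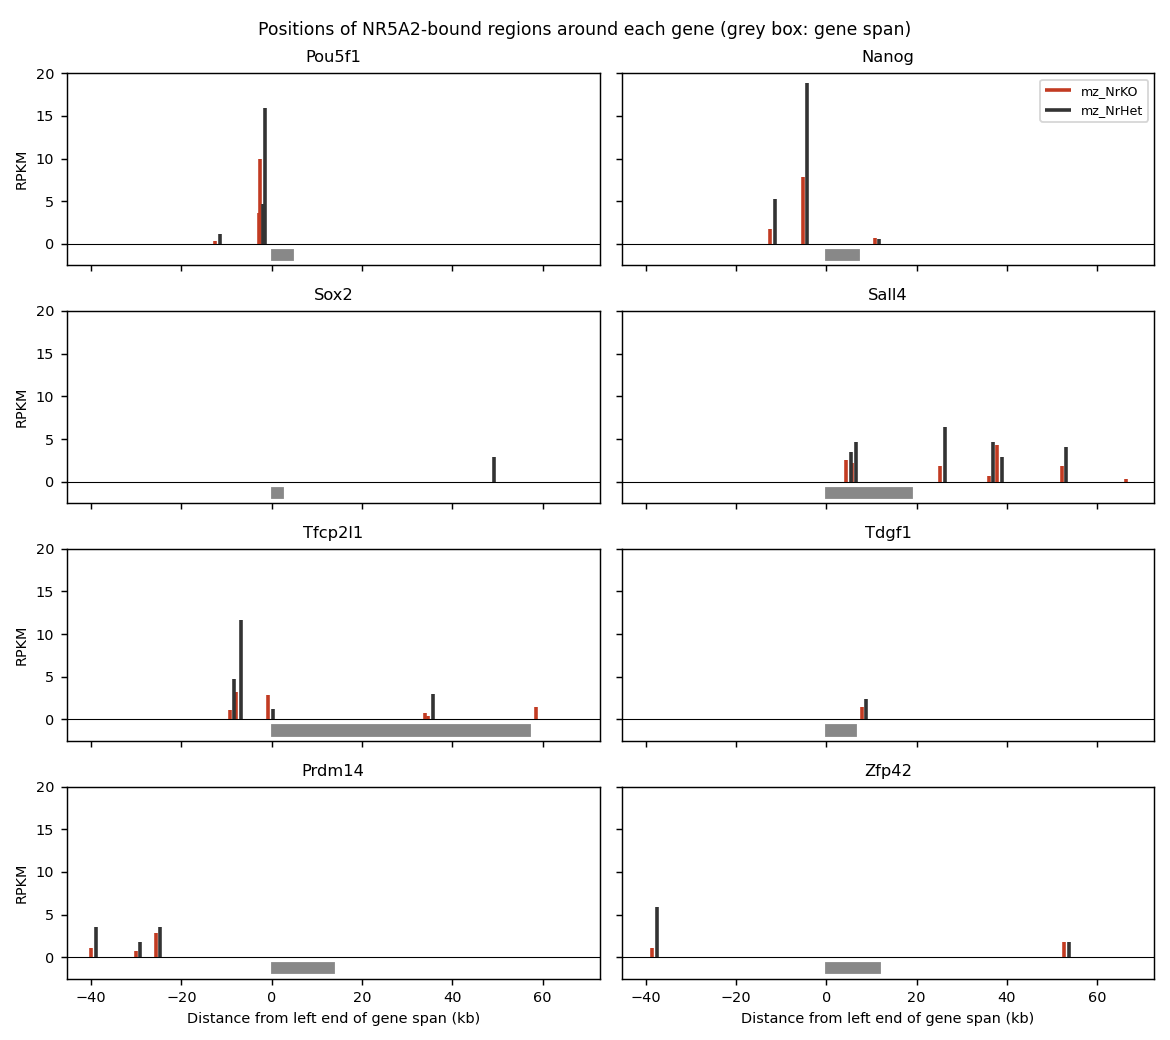
Position of each region in kb from the left end of the gene span (grey box, to scale, in the direction of rising coordinates), with its RPKM in mz_NrKO and mz_NrHet drawn side by side, so that bars of the Pou5f1 regions 179 bp apart overlap. The tallest mz_NrHet bars stand to the left of Pou5f1, Nanog and Tfcp2l1, at regions with 10.0, 7.89 and 3.23 RPKM in mz_NrKO and 15.9, 18.8 and 11.7 RPKM in mz_NrHet.

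Ordered by each gene's highest region in mz_NrHet, the genes ran from Nanog (32 reads) through Pou5f1 (27), Tfcp2l1 (20), Sall4 (11, at 6.79 kb from the gene), Zfp42 (10), Prdm14 (6) and Sox2 (5) to Tdgf1 (4). The 95% Poisson intervals of all neighbours in this order overlap, so neighbours are not separated beyond counting error. The interval of Nanog lies above those of Sall4 and every gene after it, that of Pou5f1 above those of Prdm14 and the genes after it, and that of Tfcp2l1 above those of Sox2 and Tdgf1. Each region was picked on these same counts, from 7 regions at Sall4 but 1 at Sox2 and at Tdgf1. The intervals do not allow for that choice. For the ratios per gene, the mz interval lay below 1 for Nanog, Sox2, Sall4, Tfcp2l1 and Zfp42, and the inducible interval for Pou5f1, Tfcp2l1, Tdgf1 and Prdm14. Below the ratio over all regions lay only the mz interval of Sox2 (upper bound 0.666, against 0.668) and the inducible interval of Tdgf1 (0.450, against 0.694). The Sox2 bound falls within the interval of the ratio over all regions, 0.663 to 0.674. It rests on 1 region with 0 against 5 reads, so Sox2 is not set apart from the whole table. All 16 ratios, 8 genes in 2 series, were below 1, except that the inducible ratio of Sall4 became 1.05 with the columns scaled to the median and 1.19 with the summed ratio scaled to 1, where that of Sox2 became 1.05. The mz intervals of the 8 genes overlap one another. In the inducible series Tdgf1, with an upper bound of 0.450, does not overlap Sall4, with a lower bound of 0.632, or Nanog, with a lower bound of 0.462.

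**Figure D3:**
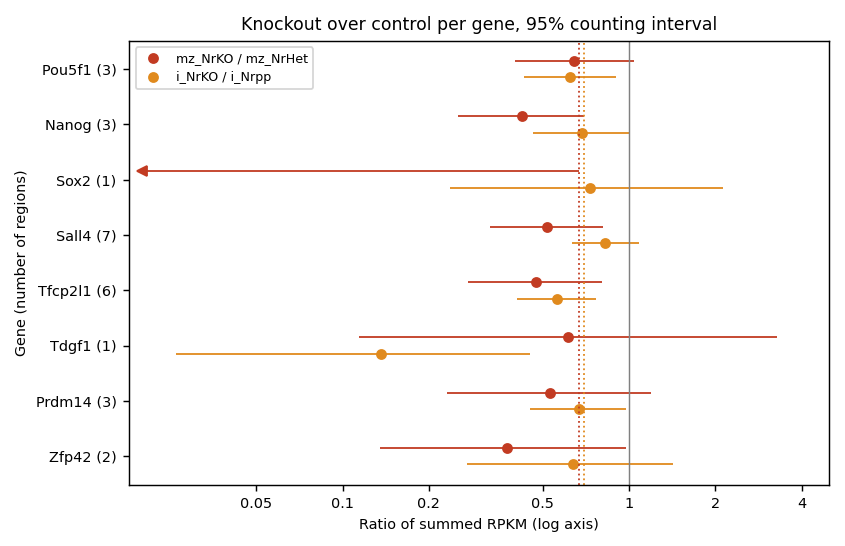
Ratio of summed RPKM per gene on a log axis, mz_NrKO over mz_NrHet and i_NrKO over i_Nrpp, with exact 95% intervals for counting error. Dotted lines mark the ratio over all regions, 0.668 for the mz embryos and 0.694 for the pools, and the arrow for Sox2 stands for 0 reads in mz_NrKO with an upper bound of 0.666.

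By the authors' classes, 14 of the 26 regions (53.8%) are accessible, against 48.5% of all regions. The accessible ones had a mean of 2.87 RPKM in mz_NrKO and 6.25 RPKM in mz_NrHet, a ratio of 0.459 (0.356 to 0.590), beside 0.650 (0.644 to 0.656) over all accessible regions. Their inducible ratio was 0.633 (0.534 to 0.748), beside 0.692 (0.687 to 0.697). The 12 not accessible regions had ratios of 0.598 (0.389 to 0.917) and 0.711 (0.547 to 0.922), beside 0.734 and 0.698 over all not accessible regions. Values were lower in mz_NrKO at 12 of 14 accessible regions (85.7%, against 74.8% of all accessible regions) and at 7 of 12 not accessible ones (58.3%, against 54.3% of that class). In the treated pool they were lower at 12 of 14 (85.7%, against 81.4%) and at 11 of 12 (91.7%, against 67.9%).

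The set resembled the whole table in NR5A2 binding, with a median CUT&RUN of 4.31 RPKM against 4.15 RPKM, and 3 regions in the top 10% of binding, at Prdm14, Sall4 and Tfcp2l1. By position, 14 of 26 regions (53.8%) lay within 10 kb of the gene against 73.5% of all regions, and 4 of 26 (15.4%) lay inside a gene against 50.9%. The set was selected by distance, with a limit of 50 kb that the whole table lacks. Its regions can lie inside member genes only, so the rule and the lengths of these genes enter both shares. The authors had moved the CUT&RUN summit onto an Nr5a2 motif at 23 of 26 regions (88.5%), against 89.3% of all regions. The recentred position lay inside the region itself at 20 of 26 (76.9%), against 85.3% of all regions. It lay outside at the most accessible Nanog region and at the Tdgf1 region, among others. Split at the table's median binding, the 13 regions of the set above it had ratios of 0.434 (0.322 to 0.582) for the mz embryos and 0.584 (0.483 to 0.705) for the pools, and the 13 below had 0.573 (0.415 to 0.792) and 0.762 (0.614 to 0.944). These intervals overlap in each series. Over all regions the values were 0.646 and 0.672 above the median and 0.710 and 0.730 at or below it, in the same order.

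**Figure D4:**
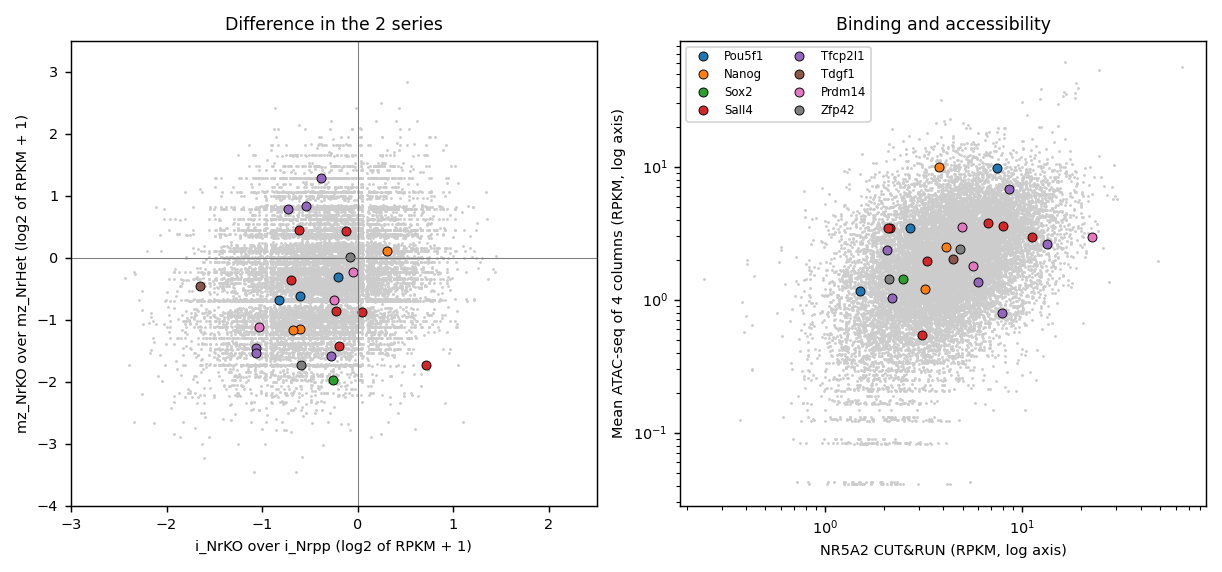
Left, log2 ratio of (RPKM + 1) for i_NrKO over i_Nrpp (x axis) and mz_NrKO over mz_NrHet (y axis), and right, NR5A2 CUT&RUN signal against the mean ATAC-seq signal of the 4 columns on log axes. Grey points are all regions and coloured points the 26 regions of the set, of which 17 have negative values on both axes of the left plot. The 35 regions with 0 reads in all columns cannot be drawn on the right.

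The deposited classes of change, which come from the mean of both ratios, call 15 of the 26 regions Down (57.7%, against 41.5% of all regions) and 4 Up (15.4%, against 16.9%). Of the 4 Up regions, 3 had 0 reads in mz_NrHet, 2 of them at Tfcp2l1 and 1 at Sall4, and all 4 had lower values in the treated than in the untreated pool. The authors' deposited table gives these 3 regions mz ratios of 72.7, 144 and 36.9, on 2, 4 and 1 reads in mz_NrKO. Over all regions, 56.2% of the Up class (1614 of 2873) had 0 reads in mz_NrHet.

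Other genes of the pluripotency network had 72 regions at 24 of 42 listed genes (the Klf genes left out). In the mz series 1 of 72 was lower, where 1.73% of all regions were, and none was higher, where 0.0236% were. In the inducible series 2 of 72 were lower, where 6.37% of all regions were, and none was higher, where 0.0767% were. These counts are near or below the background and say nothing about the list. The median log2 ratios of the 72 regions were -0.63 and -0.32. Their ratios of summed RPKM were 0.593 (0.524 to 0.671) and 0.766 (0.703 to 0.835). The region that fell in the mz series lies 13.7 kb from Dppa3, a maternal-effect gene next to Nanog, with 2.51 RPKM in mz_NrKO and 11.7 RPKM in mz_NrHet (adjusted p = 0.0218, exact binomial test). Those that fell in the treated pool lie 14.2 kb from Etv5, an ETS factor gene, with 1.02 RPKM treated and 4.41 RPKM untreated, and 29.2 kb from Otx2, a homeobox gene of primed pluripotency, with 1.02 RPKM treated and 3.92 RPKM untreated (adjusted p = 0.0136 and 0.0324, exact binomial tests). Cumulus and granulosa cells may adhere to embryos, and 12 regions at 7 of 20 of their genes had ratios of 0.972 (0.750 to 1.26) and 0.894 (0.744 to 1.07). None was called in either series, where 1.73% and 6.37% of all regions were lower. Their means were 4.66 RPKM in mz_NrKO and 4.80 RPKM in mz_NrHet, against 2.31 and 3.46 RPKM over all regions. Equal amounts of such cells in both arms would also give a ratio near 1. Their presence was thus not tested.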

How the data were processed

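ATAC-seq libraries of 23 samples (13 mz_NrKO, 8 mz_NrHet, 1 i_NrKO, 1 i_Nrpp) were grouped by their titles. Cutadapt, Bowtie2, MACS2 and mm10 are named per the submitters' processing notes, while transposase shifting and duplicate removal are not given in the sources used here. The authors' deposited table holds 1 merged RPKM column per group, CUT&RUN RPKM of an earlier study, and ratios of knockout over control. Those deposited ratios equalled (knockout + 0.01)/(control + 0.01). Within each ATAC-seq column 100% of RPKM values were whole multiples of a single step (tolerance 0.0001 steps), for short and long regions alike, so reads were recovered by division. Steps were 0.359 (mz_NrKO), 0.587 (mz_NrHet), 0.170 (i_NrKO) and 0.163 RPKM (i_Nrpp).

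Regions were compared by two-sided exact binomial tests given the steps (scipy 1.17.1), with Benjamini-Hochberg adjustment over 16958 regions at 0.05. The series were compared by an exact conditional test. Ratios carry Clopper-Pearson 95% intervals. In the text a count of 0 was taken to allow 3 reads. The Poisson intervals drawn for 0 reads reach higher, to 1.32 RPKM in mz_NrKO and 2.17 RPKM in mz_NrHet. Tests were checked on simulated independent Poisson reads. These hold no spread between embryos and no reads shared by neighbours, so the check does not cover either. Nearest genes came from the RefSeq gene table, which gives no exons. Regions in full are each gene's most accessible one by the mean of the 4 columns and any that passed; others were added for position or contrast after their values were seen. The members and gene lists were chosen with earlier results of these data known. Alternatives were scaling, a read minimum, 10 kb, the accessible class, a fold of 1.5, pseudocounts and leaving out genes. No region sequence was available from a genome, so motifs were searched only in start site windows.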

Additional observations from a re-analysis of the deposited data

How the results depend on the processing

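No paired analysis was possible because each group is 1 merged column without replicate numbers. With the median log2 ratio of all regions scaled to 0 (shifts of -0.32 and -0.35), the calls of lower regions became 0 in both series, and the ratios of summed RPKM over the 26 regions became 0.615 (mz) and 0.835 (inducible). With the summed ratio over all regions scaled to 1, the calls were again 0 in both and the ratios 0.736 and 0.944. Tested among regions with at least 10 reads, 2 of 15 member regions were lower in the mz series. In the inducible series 2 of 26 were, in both by the smaller number of tests. The share of all filtered regions that passed is not given, so neither count can be set against a background. A fold of 1.5 in place of the test gave 16 lower and 4 higher in the mz and 14 lower and 1 higher in the inducible series. The median over regions with pseudocount 1 corresponds to a mz ratio of 0.623, and 0.448 with pseudocount 0.01. With any 1 gene left out the ratios stayed between 0.457 and 0.511 (mz) and between 0.598 and 0.682 (inducible). Within 10 kb they were 0.513 and 0.612. No member region differed between the series, also among regions with at least 20 reads over the 4 columns, an alternative chosen after seeing the data. Under the second scaling the inducible ratio of Sall4 became 1.19 and that of Tfcp2l1 0.809. Scaling multiplies every ratio of a series by 1 factor, 1.25 (mz) and 1.27 (inducible) by the median, and 1.5 and 1.44 by the sum. It thereby removes any lowering common to most regions. The 2 called regions kept ratios below 1 in the series of their call but did not pass, so both calls depend on the scaling. Depth limits the mz series most, where the median region of the set held 4.5 reads in mz_NrKO and 6 in mz_NrHet.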
